A study of Mus musculus with 15 samples.

Results

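The mitochondrial respiratory chain genes described here are the 94 genes whose symbol on the array begins with Nduf, Sdha to Sdhd, Uqcr, Cox4 to Cox8 or Atp5. They were 94 of 18194 genes measured, and each was read from its brightest probe set, judged by the mean of all 15 arrays. By complex, 44 belonged to complex I, 8 to complex II, 8 to complex III, 17 to complex IV and 17 to complex V. The prefixes also collect proteins that are not structural subunits, namely 12 assembly factors (Ndufaf1 to Ndufaf8 and Sdhaf1 to Sdhaf4) and Cox7a2l, and 8 isoforms known mainly from muscle, testis or other restricted tissues. A further 10 probe sets matched a prefix but carried several gene symbols and were not used.

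The respiratory chain sits in the inner mitochondrial membrane. Complex I takes electrons from NADH and complex II takes them from succinate, complex III passes them from ubiquinone to cytochrome c, and complex IV gives them to oxygen, while the proton gradient built along the way drives ATP synthesis by complex V. A few hydrophobic core subunits are encoded by the mitochondrial genome and the rest by nuclear genes, and assembly factors help put them together without staying in the finished complex. Astrocytes combine a high rate of glycolysis with oxidative metabolism, and the balance is known to differ between neural stem cells and the cells that derive from them.

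The cells came from male mice with the genotype Gli1-CreER;GFAP-GFP;R26tdTomato, which all 3 groups shared. In these mice a tamoxifen-dependent recombinase made under control of Gli1, a target of Sonic hedgehog signalling, switches on a red reporter for good, and a Gfap promoter drives a green one. The animals were 6 to 8 weeks old and received 2 doses of 10 mg tamoxifen, and 3 weeks later double-positive cells were collected by sorting from 3 brain regions, namely the subventricular zone (SVZ), hippocampus and cerebellum. Each region had 5 arrays, and every array held RNA from 10 to 12 pooled mice. The SVZ and hippocampus contain the adult neural stem cell niches and the cerebellum was the reference in the series design, so niche and forebrain origin cannot be told apart in comparisons with cerebellum. The labels do not say how the pools were kept separate, so p-values measure the spread between these arrays.

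Levels are given as log2 signal after RMA. The median over all probe sets of an array lay between 1.12 and 1.31, no detection calls came with the values, and 76 of the 94 genes had a mean above 3 while 18 were at or below it, close to the floor of the scale. Levels of different genes are not compared, since they come from different probes. Correlations between pairs of arrays ranged from 0.7625 to 0.9695. The astrocyte genes Slc1a3 (at least 8.61 on every array) and Aldoc (at least 9.36) were high throughout, whereas Gfap itself ranged from 2.69 to 7.60. In pooled RNA of this kind, fewer cells of a type and less RNA per cell cannot be told apart.

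Most respiratory chain genes had negative fitted differences from cerebellum in SVZ and in hippocampus, but the share that passed the test was above that of all genes in SVZ and close to it in hippocampus. The fitted difference of SVZ minus cerebellum was negative for 86 of the 94 genes, with a median of -0.93 on the log2 scale. limma with Benjamini-Hochberg adjustment over all genes called 10 of them lower (10.6%) and 0 higher at an adjusted p under 0.05, where 4.47% of all genes were called lower and 1.03% higher. At an unadjusted p under 0.05, 51 were lower and 1 higher, against 13.6% and 7.54% of all genes. In 21 genes every SVZ array lay below every cerebellum array, which held for 6.02% of all genes.

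In hippocampus minus cerebellum the median difference was -0.50 and 77 of the 94 genes were negative. limma called 4 lower (4.26%) and 0 higher, where 3.97% of all genes were called lower and 0.808% higher, so the count was near the background. At an unadjusted p under 0.05, 18 were lower and 1 higher, against backgrounds of 12.6% and 7.55%. In 3 genes, Ndufb3, Sdhaf2 and Cox7b2, every hippocampus array lay below every cerebellum array, a share of 3.19% beside 5.3% of all genes. Both comparisons use the same 5 cerebellum arrays, so their values are not independent of each other.

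**Figure D1:**
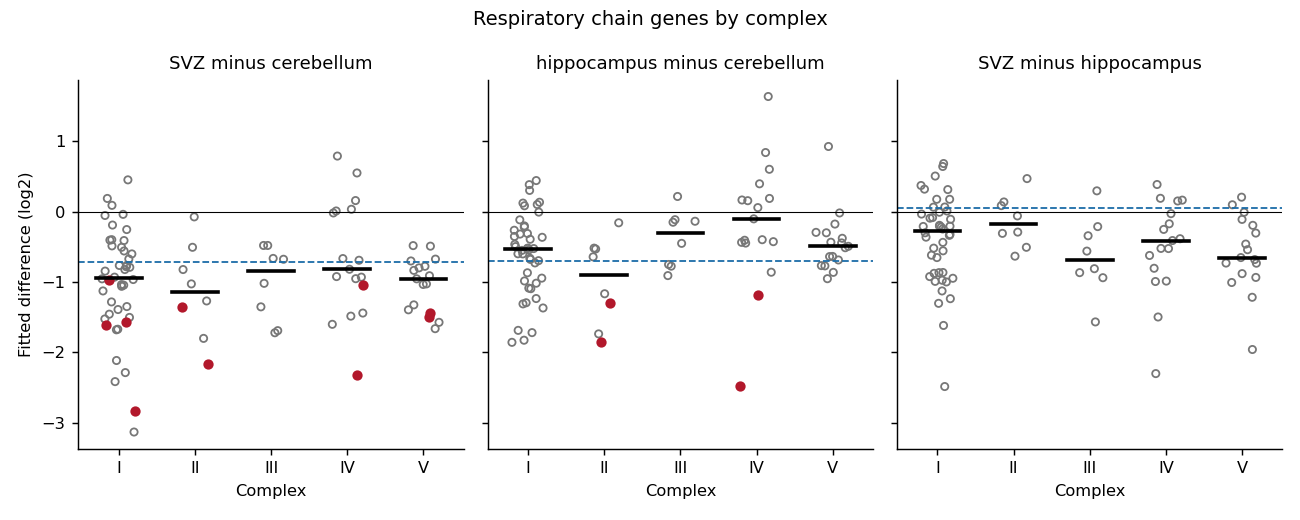
Fitted log2 difference (vertical axis) of each of the 94 respiratory chain genes by complex (horizontal axis) in the 3 comparisons. Each circle is a gene, filled red where limma called it at an adjusted p under 0.05, black bars are the median of a complex and the dashed line is the median of all genes that averaged above 3. In SVZ minus cerebellum the medians of all 5 complexes lie between -1.15 and -0.82, below the dashed line at -0.72, and in hippocampus minus cerebellum those of complexes I, III, IV and V lie above the dashed line at -0.70. The bars, unlike the line, include genes at or below 3. With genes above 3 alone, complex II had medians of -0.82 in SVZ and -0.53 in hippocampus, the latter also above the line.

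The share of genes that were lower than in cerebellum depended on the level of the gene, and respiratory chain genes are mostly well expressed. For the 4816 genes that averaged above 3, the median difference was -0.72 in SVZ minus cerebellum and -0.70 in hippocampus minus cerebellum, whereas over all genes it was 0.07 in both. Beside these, the 76 respiratory chain genes above 3 had medians of -0.96 and -0.52. All 76 were negative in SVZ minus cerebellum, as were 76.2% of all genes above 3, and 70 of the 76 were negative in hippocampus minus cerebellum, as were 78.7% of all genes above 3. At this level limma called 7 of the 76 lower in SVZ (background 9.99%) and 1 in hippocampus (background 9.14%). Neither share was above that of all genes above 3, most of which are dimmer than the respiratory chain genes. In narrower level bins the SVZ calls were 0 of 9 at 3 to 5 (background 9.64%) and 4 of 28 at 5 to 7 (10.2%). They were 1 of 28 at 7 to 9 (10.2%) and 2 of 11 above 9 (15.7%). Non-overlapping arrays were found in 17 of the 76 in SVZ (22.4%, background 15.2%) and in 1 in hippocampus (1.32%, background 13%).

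**Figure D2:**
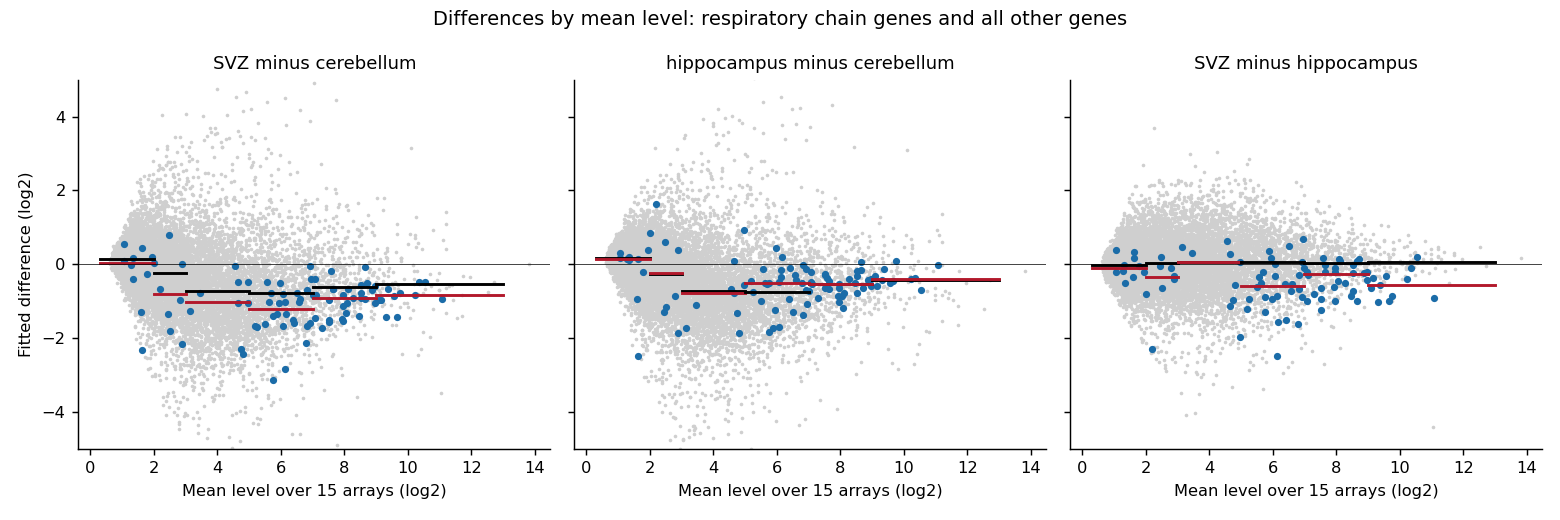
Fitted log2 difference (vertical axis) against mean log2 level over the 15 arrays (horizontal axis) for respiratory chain genes (blue) and all other genes (grey) in the 3 comparisons, with medians in level bins for respiratory chain genes (red bars) and all genes (black bars). Genes beyond the drawn range of -5 to 5 are 30 in number. Between levels of 5 and 7 the medians are -1.21 for respiratory chain genes and -0.77 for all genes in SVZ minus cerebellum, and -0.52 against -0.75 in hippocampus minus cerebellum.

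Scaling changed the size of these medians. Quantile normalization between arrays moved the median of the 94 genes to -0.57 in SVZ minus cerebellum, with 82 genes still negative, and to -0.12 in hippocampus minus cerebellum, with 60 negative. Among all genes called in SVZ minus cerebellum the share that was lower went from 81.2% to 65% under quantile normalization, and in hippocampus minus cerebellum from 83.1% to 68.5%. Centring each array on its median moved the median of all genes from 0.07 to -0.04 in both comparisons. Relative to genes above 3, whose quantile-normalized medians were -0.30 and -0.23, respiratory chain genes above 3 were at -0.59 and -0.17.

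Several measures of the arrays differed between regions alongside these differences. The mean signal of the poly-A spike-in controls, RNA added in fixed amounts, was 12.56 ± 0.85 (SD, n = 5) for SVZ, 12.46 ± 0.55 for hippocampus and 10.28 ± 1.596 for cerebellum. Probe sets above 3 made up 15% to 19.4% of each SVZ array, 15.1% to 19.7% of each hippocampus array and 20% to 22.4% of each cerebellum array. With the spike-in level as a covariate the median of the 94 genes was -0.65 in SVZ minus cerebellum and -0.19 in hippocampus minus cerebellum, and 2 genes were called lower in each, while calls of lower genes over all 18194 went from 814 to 144 and from 722 to 178. The 3' to 5' signal differences of actin and Gapdh overlapped between the regions.

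Marker genes of other cells moved too. Summed linear signal of the 9 cerebellar neuron markers was 299.1 to 465.8 on cerebellum arrays and at most 111.5 elsewhere. Zic1 made most of that sum (7.48 to 8.75 in cerebellum, up to 6.53 elsewhere), followed by Pvalb (4.17 to 6.91, up to 2.66 elsewhere). Gabra6 and Neurod1, markers of granule cells, were at or below 1.82 on every array. The 10 neuron markers summed to 187.7 to 443.1 on cerebellum arrays and at most 217.2 elsewhere. Map2 (7.21 to 7.49 in cerebellum, up to 7.22 elsewhere) and Snap25 (4.54 to 7.94, up to 5.52 elsewhere) made most of that sum. The 7 oligodendrocyte markers summed to 1003 to 1365 in cerebellum and at most 478.1 elsewhere, a sum made almost wholly by Cnp (9.94 to 10.39 in cerebellum). Their median difference was positive, 0.31 in SVZ and 0.33 in hippocampus, with 5 of 7 positive in both, and Mbp and Mobp read up to 6.67 and 5.88 in SVZ and at most 3.49 and 1.90 in cerebellum. Meanwhile the 12 microglia markers summed to 528.1 to 5200 in SVZ, 231.1 to 2205 in hippocampus and 32.59 to 206.7 in cerebellum. limma called 1 of the 10 neuron, 4 of the 9 cerebellar neuron and 1 of the 7 oligodendrocyte markers lower, and 5 of the 12 microglia markers higher, in SVZ than in cerebellum. In hippocampus the corresponding counts were 1 neuron, 3 cerebellar neuron, 1 oligodendrocyte and 2 microglia markers. Of the 10 astrocyte markers, 2 were called lower and 1 higher in SVZ and 3 lower in hippocampus, with sums of 7310 to 11780 in SVZ, 5367 to 11020 in hippocampus and 8011 to 19560 in cerebellum. Of the 5 oligodendrocyte precursor markers 2 were called higher in SVZ and 1 in hippocampus (sums of 65.56 to 173.9, 45.74 to 91.97 and, in cerebellum, 10.12 to 11.85). Of the 8 endothelial and pericyte markers 1 was called higher in SVZ, and of the 6 ependymal and 5 choroid plexus markers 0 were called in either comparison, the choroid plexus sums running from 69.67 to 1315 in SVZ, 2328 to 16250 in hippocampus and 125.7 to 16550 in cerebellum. The part of spike-in level or of other cells in the respiratory chain differences was not tested beyond these values.

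The arrays of a region differed from each other as well. The median level of the 76 genes above 3 was 6.75, 7.0, 7.13, 7.15 and 6.57 in the SVZ replicates, 7.32, 7.90, 6.40, 6.65 and 7.72 in those of hippocampus, and 7.56, 7.48, 7.90, 7.63 and 7.94 in those of cerebellum. Every SVZ array lay below every cerebellum array, whereas hippocampus arrays 2 and 5 reached the cerebellum range and hippocampus array 3 lay below all SVZ arrays and hippocampus array 4 inside the SVZ range. The region means were 6.92 ± 0.25 in SVZ, 7.20 ± 0.65 in hippocampus and 7.70 ± 0.21 in cerebellum (SD, n = 5 each). The median of all genes above 3 likewise separated SVZ (4.1 to 4.74) from cerebellum (5.09 to 5.34), with hippocampus at 4.13 to 4.95. With that median taken off, the regions overlapped, at 2.04 to 2.645 in SVZ, 2.195 to 3.125 in hippocampus and 2.23 to 2.8 in cerebellum. Their means were then 2.38, 2.71 and 2.49. The summed choroid plexus markers were high on hippocampus arrays 2 and 5, at 16250 and 14860, as were the ependymal markers, at 173.4 and 110.9. On hippocampus arrays 1, 3 and 4 the choroid plexus sums were 2328, 7292 and 5060, and the ependymal sums 14.6, 16.36 and 44.67. Among these arrays the choroid plexus order was the reverse of that of the respiratory chain medians, 7.32, 6.40 and 6.65. Cerebellum arrays 3 and 5, with the highest respiratory chain medians of their region, had choroid plexus sums of 11230 and 16550, beside 10750, 3477 and 125.7 on cerebellum arrays 4, 1 and 2. Over all 5 cerebellum arrays the choroid plexus order was the same as that of the respiratory chain medians. The sums of the SVZ replicates, 360.1, 137.1, 69.67, 1315 and 1194, followed neither the order of their medians nor its reverse. The part of these cells in the array medians was not tested. Within hippocampus, array 2 held the highest value of the 5 in 43 of the 76 genes (56.6%, against 31.6% of all genes above 3) and array 3 the lowest in 37 (48.7%, against 29.6%). Per gene, the SD between replicates had a median over the 76 genes of 0.71 for SVZ, 0.80 for hippocampus and 0.44 for cerebellum. Over all genes above 3 it was 1.001, 1.004 and 0.481, so the smaller cerebellum spread was not particular to respiratory chain genes.

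**Figure D3:**
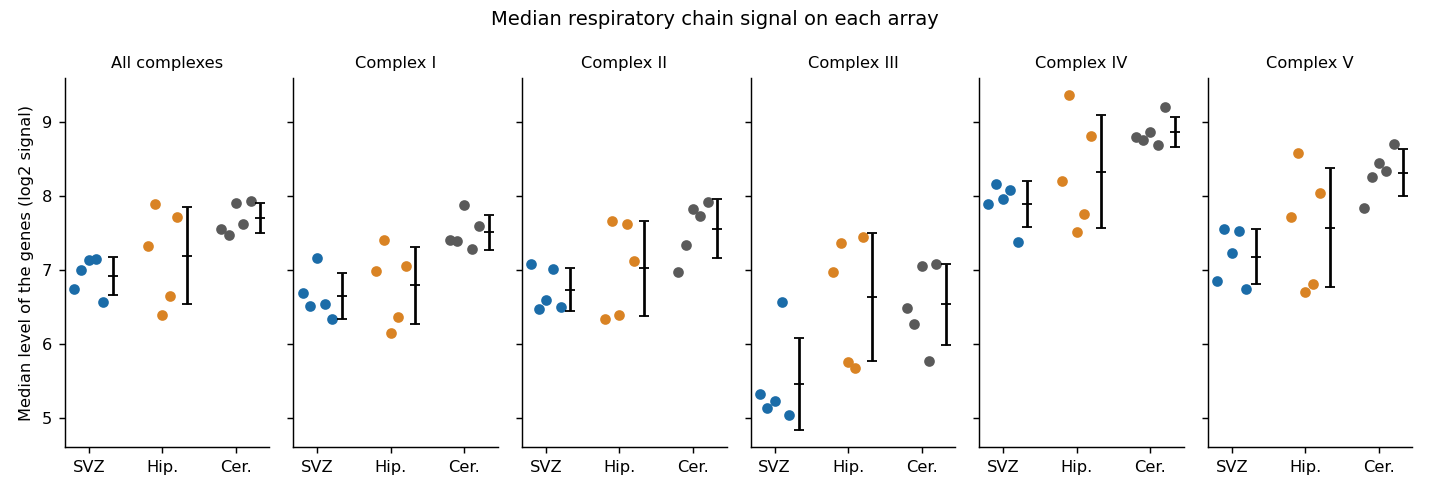
Median log2 level of the respiratory chain genes with a mean above 3 (vertical axis) on each array, for all complexes and for complexes I to V, by region (horizontal axis; Hip. is hippocampus and Cer. cerebellum). Points are arrays, and bars are the mean and SD of 5 arrays. Over all complexes the SVZ arrays lie between 6.57 and 7.15 and the cerebellum arrays between 7.48 and 7.94, while the hippocampus arrays run from 6.40 to 7.90. The median of all genes above 3, not drawn, was 4.1 to 4.74 in SVZ, 4.13 to 4.95 in hippocampus and 5.09 to 5.34 in cerebellum.

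Complex I, the NADH dehydrogenase, gave a median of -0.94 in SVZ minus cerebellum over its 44 genes, 41 of them negative, and -0.54 in hippocampus minus cerebellum, with 37 negative. Its 36 members other than assembly factors had medians of -0.84 and -0.54. limma called 4 complex I genes lower in SVZ, the accessory subunits Ndufa6, Ndufb6 and Ndufc2 and the assembly factor Ndufaf8, and 0 in hippocampus.

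Ndufa6, an accessory subunit of the LYR protein family at the matrix arm, read 4.63, 4.68, 5.71, 4.28 and 4.42 in SVZ, 6.21, 5.68, 4.46, 4.64 and 5.83 in hippocampus and 6.52, 5.71, 6.84, 6.06 and 6.62 in cerebellum. SVZ lay below cerebellum except that the highest SVZ array equalled the lowest cerebellum array, and hippocampus spanned both. The difference of SVZ minus cerebellum was -1.61 ± 0.37 (SE, adjusted p = 0.0204 by limma), and the call was lost without cerebellum array 3 or cerebellum array 5, with an adjusted p of up to 0.0577. It was also lost with quantile normalization (adjusted p = 0.105), with a trended and robust spread (0.0521), with the spike-in covariate (0.271) and without cerebellum arrays 4 and 5 together (0.110).

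Ndufb6, an accessory subunit of the membrane arm, read 4.99, 5.77, 6.26, 7.17 and 6.34 in SVZ, 6.48, 8.25, 6.15, 6.38 and 7.66 in hippocampus and 7.75, 7.38, 7.84, 7.58 and 7.86 in cerebellum. Its SVZ values were all below the narrow cerebellum range. The difference was -1.58 ± 0.43 (adjusted p = 0.0460 by limma), but a second probe set of the gene gave -0.59 and was not called. Ndufc2, also of the membrane arm, read 8.88, 8.50, 9.04, 8.07 and 8.25 in SVZ and 9.29, 9.28, 9.72, 9.41 and 9.91 in cerebellum, again without overlap, with hippocampus between 8.49 and 9.79. Its difference was -0.97 ± 0.25 (adjusted p = 0.0378), and the 2 other probe sets of the gene that read above 3 gave -1.33 and -1.34. Leaving out single arrays ended the call of Ndufb6 in 10 of 15 fits (SVZ 1, 2, 3 or 5, hippocampus 1 or any cerebellum array, adjusted p up to 0.106) and that of Ndufc2 in 8 (SVZ 2, 4 or 5 or any cerebellum array, up to 0.104). With quantile normalization the adjusted p was 0.102 for Ndufb6 and 0.192 for Ndufc2, and with the spike-in covariate 0.474 and 0.530.

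Ndufaf8, an assembly factor of complex I, read 2.56, 5.23, 7.05, 4.08 and 2.87 in SVZ, 5.46, 7.64, 6.59, 6.03 and 8.50 in hippocampus and 7.39, 7.30, 7.84, 6.40 and 7.06 in cerebellum. SVZ array 3 reached into the cerebellum range, while the other SVZ arrays were below it, and the hippocampus arrays spread around cerebellum. The difference of SVZ minus cerebellum was -2.84 ± 0.77 (adjusted p = 0.0468), was lost in 12 of 15 fits that left out 1 array (all but SVZ 3, hippocampus 1 and hippocampus 5, adjusted p up to 0.103), and was not shared by a second, dim probe set, which gave 0.06. With quantile normalization its adjusted p was 0.103 and with the spike-in covariate 0.441.

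The largest SVZ difference of any respiratory chain gene was that of another assembly factor, Ndufaf2, at -3.13 ± 0.95, which was not called (adjusted p = 0.0731 by limma). It read 2.26, 6.22, 6.57, 3.09 and 3.22 in SVZ, 7.73, 5.78, 2.93, 7.07 and 4.37 in hippocampus and 7.45, 7.39, 7.91, 7.08 and 7.19 in cerebellum. Its SVZ and hippocampus arrays were widely scattered and the cerebellum arrays were not. All 8 complex I assembly factors were negative in SVZ minus cerebellum, with a median of -1.17. Of the core subunits of the peripheral arm, where NADH is oxidised, Ndufs1 differed by -0.04 ± 0.77 and Ndufv1 by -0.41 ± 0.47 in SVZ minus cerebellum, neither of them called, and the 6 measured core subunits together had a median of -0.64 in SVZ and -0.62 in hippocampus. Ndufa3, an accessory subunit, differed by -2.12 ± 0.61 in SVZ without overlap (4.59 to 7.16 against 7.20 to 8.23) but at an adjusted p of 0.0608. In hippocampus, Ndufb3 was the 1 complex I gene whose arrays lay wholly below those of cerebellum, with a difference of -1.37 ± 0.49 (adjusted p = 0.133) and values of 5.83 to 7.37 against 7.53 to 8.15. On the positive side, Ndufb4 in SVZ (0.45) and Ndufb2 in hippocampus (0.44) had the largest values, with adjusted p of 0.572 and 0.696. Ndufb4 had a mean of 1.64, close to the floor, and all 37 complex I genes above 3 were negative in SVZ minus cerebellum.

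Complex II, succinate dehydrogenase, is both a respiratory complex and an enzyme of the citrate cycle. Its 8 genes had medians of -1.15 in SVZ minus cerebellum and -0.91 in hippocampus minus cerebellum, and all 8 were negative in both. The subunits and the assembly factors contributed unequally. The 4 subunits Sdha, Sdhb, Sdhc and Sdhd had medians of -0.67 and -0.53 and 0 calls, while the assembly factors Sdhaf1 to Sdhaf4 had medians of -1.58 and -1.52 and 2 calls in each comparison, Sdhaf2 and Sdhaf3. The difference between subunits and assembly factors was not tested, and Sdhaf1 to Sdhaf3 are dim, with means at or below 3.

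Sdhaf2, the factor that attaches the flavin cofactor to Sdha, read 1.49, 1.90, 2.18, 2.19 and 2.62 in SVZ, 1.90, 3.25, 2.99, 1.93 and 1.86 in hippocampus and 5.23, 4.38, 4.00, 3.52 and 4.10 in cerebellum. All 10 forebrain arrays lay below all 5 cerebellum arrays. The difference was -2.17 ± 0.36 in SVZ (4.50-fold, adjusted p = 0.00236 by limma) and -1.86 ± 0.36 in hippocampus (3.63-fold, adjusted p = 0.00722), and both calls held in all 15 fits that left out 1 array. A second probe set of Sdhaf2, with a mean of 2.26, gave -0.08 and -0.07, and the hippocampus call was lost with the mean of the probe sets (adjusted p = 0.0711) and with quantile normalization (adjusted p = 0.0880). Sdhaf3, which serves maturation of the iron-sulphur subunit Sdhb, read 1.96, 1.75, 1.67, 2.57 and 1.86 in SVZ, 2.11, 2.62, 1.74, 2.17 and 1.48 in hippocampus and 3.65, 2.17, 4.39, 2.97 and 3.41 in cerebellum. Cerebellum array 2 lay within the forebrain values and the other 4 cerebellum arrays above them. The differences were -1.36 ± 0.35 (adjusted p = 0.0367) and -1.29 ± 0.35 (adjusted p = 0.0494). Leaving out 1 array ended the SVZ call in 8 of 15 fits (SVZ 1, 2, 3 or 5, or cerebellum 1, 3, 4 or 5, adjusted p up to 0.087) and the hippocampus call in 12 (the same arrays and hippocampus 1, 3, 4 or 5, up to 0.111). Quantile normalization (adjusted p of 0.194 and 0.261) and the spike-in covariate (0.258 and 0.278) ended both calls. A second dim probe set of Sdhaf3 gave 1.05 in SVZ and -0.39 in hippocampus, neither called.

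Sdhaf2 and Sdhaf3 were called in both comparisons, and their promoters are shown as the 200 bases before the annotated start (RefSeq, GRCm38.p6), read 5′ to 3′ on the strand of the gene. Capitals mark CCGGAAG or its reverse complement CTTCCGG, the core letters bound by ETS factors such as GABPA, a known regulator of respiratory chain genes. The match begins 158 bases before the start in Sdhaf2 (chr19:10525210-10525409, minus strand) and 127 bases before it in Sdhaf3 (chr6:6955818-6956017, plus strand).
Sdhaf2: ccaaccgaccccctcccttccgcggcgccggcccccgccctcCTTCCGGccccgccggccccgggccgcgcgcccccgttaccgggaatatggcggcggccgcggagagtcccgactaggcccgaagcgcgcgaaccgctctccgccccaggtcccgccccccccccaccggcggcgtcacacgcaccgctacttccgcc
Sdhaf3: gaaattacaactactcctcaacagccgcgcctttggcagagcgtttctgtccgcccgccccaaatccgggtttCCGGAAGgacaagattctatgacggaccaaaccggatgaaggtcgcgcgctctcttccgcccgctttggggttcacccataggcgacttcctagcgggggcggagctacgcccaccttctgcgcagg

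The catalytic flavoprotein Sdha read 8.69, 8.49, 8.38, 9.07 and 8.34 in SVZ, 8.21, 9.07, 7.99, 8.36 and 8.66 in hippocampus and 8.79, 9.48, 8.54, 9.37 and 9.33 in cerebellum. The 3 groups overlapped, and its differences of -0.51 ± 0.24 (adjusted p = 0.245) and -0.64 ± 0.24 (adjusted p = 0.157 by limma) were not called. Sdhb differed by -1.03 ± 0.64 and -0.52 ± 0.64, and Sdhc, a membrane anchor, by -0.08 ± 0.38 and -0.16 ± 0.38. Sdhaf1 differed by -1.80 ± 0.62 in SVZ (adjusted p = 0.115), with SVZ at 1.30 to 2.29 and cerebellum at 3.04 to 4.28.

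Complex III, cytochrome bc1, had 8 measured genes, all above 3, and 0 calls in any comparison. Its median was -0.85 in SVZ minus cerebellum with 8 of 8 negative, and -0.30 in hippocampus minus cerebellum with 7 of 8 negative, the latter changing sign to 0.03 under quantile normalization. The Rieske iron-sulphur protein Uqcrfs1 was the 1 gene whose SVZ arrays (5.48, 5.18, 5.43, 5.59 and 4.78) all lay below its cerebellum arrays (5.72, 5.67, 5.95, 5.63 and 5.90). That difference was small, -0.48 ± 0.17 (adjusted p = 0.122 by limma), with hippocampus at 5.41 to 6.01. Uqcrc1, a core protein, differed by -0.48 ± 0.56 in SVZ and -0.78 ± 0.56 in hippocampus. Uqcrh, the hinge protein, had the largest hippocampus difference at -0.91 ± 0.60 (adjusted p = 0.395). Uqcrq had the largest positive one at 0.21 ± 0.62 (adjusted p = 0.857).

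Complex IV, cytochrome c oxidase, holds 7 of the 8 restricted isoforms. Its 17 genes had a median of -0.82 in SVZ minus cerebellum, with 12 negative, and -0.10 in hippocampus minus cerebellum, with 9 negative. The hippocampus median was 0.06 under quantile normalization, 0.09 with the spike-in covariate and 0.15 without hippocampus array 3, so its sign was not settled. The 9 complex IV genes above 3 had medians of -0.95 and -0.43. limma called Cox7a2l and Cox7b2 lower in both regions.

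Cox7a2l, which resembles Cox7a2 and is known as a factor of supercomplexes of complexes III and IV, read 7.34, 8.16, 7.96, 7.93 and 7.63 in SVZ, 7.26, 8.57, 6.92, 7.76 and 7.76 in hippocampus and 8.98, 8.83, 8.86, 8.47 and 9.08 in cerebellum. SVZ lay wholly below cerebellum, and in hippocampus array 2 alone passed the lowest cerebellum array. Cox7a2l differed by -1.04 ± 0.27 for SVZ (adjusted p = 0.0356 by limma) and by -1.19 ± 0.27 for hippocampus (adjusted p = 0.0191). The other 2 probe sets of the gene gave -1.17 and -1.24 in SVZ and -1.15 and -1.28 in hippocampus. The hippocampus call was lost without cerebellum array 5 (adjusted p = 0.0567) and the SVZ call in 8 of 15 such fits (SVZ 1, 3, 4 or 5, or cerebellum 1, 2, 3 or 5, up to 0.0952). Both calls were also lost with quantile normalization, at an adjusted p of 0.119 for SVZ and 0.0608 for hippocampus, and with the spike-in covariate, at 0.513 and 0.351.

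Cox7b2, an isoform of Cox7b known mainly from testis, had the smallest adjusted p of all 94 genes in both comparisons. It read 0.95, 1.19, 0.86, 0.65 and 0.95 in SVZ, 0.64, 0.47, 0.94, 1.04 and 0.70 in hippocampus and 4.22, 1.95, 4.03, 3.24 and 2.76 in cerebellum. All forebrain values were near or below the array medians, and all cerebellum values were above them. The differences were -2.32 ± 0.34 in SVZ (4.99-fold, adjusted p = 0.00119 by limma) and -2.48 ± 0.34 in hippocampus (5.59-fold, adjusted p = 0.000634), and both calls held in all 15 fits without 1 array. With forebrain signal at the floor of the scale, the size of the fold is not well set.

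Cox7a2l and Cox7b2 were the other genes called in both comparisons, and their 200 bases before the start are shown for comparison with those of Sdhaf2 and Sdhaf3. Cox7a2l (chr17:83514334-83514533, minus strand) and Cox7b2 (chr5:71548206-71548405, minus strand, both GRCm38.p6) held none of the 3 motifs searched in these bases, so nothing is in capitals.
Cox7a2l: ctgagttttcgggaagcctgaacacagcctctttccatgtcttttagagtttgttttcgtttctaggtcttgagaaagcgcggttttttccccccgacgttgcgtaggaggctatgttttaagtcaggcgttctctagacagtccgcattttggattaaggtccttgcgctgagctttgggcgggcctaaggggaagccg
Cox7b2: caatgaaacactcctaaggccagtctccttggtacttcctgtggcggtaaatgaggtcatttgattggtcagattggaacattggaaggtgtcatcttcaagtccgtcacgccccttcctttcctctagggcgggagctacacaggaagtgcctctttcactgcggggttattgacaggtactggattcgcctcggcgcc

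The ubiquitous subunits of complex IV can be set beside their restricted isoforms as differences. Cox4i1 differed by -0.92 ± 0.31 in SVZ minus cerebellum without overlap (7.25 to 8.11 against 8.32 to 9.12, adjusted p = 0.105 by limma), and Cox4i2, the hypoxia-responsive form, by 0.16 ± 0.21 at levels of 1.14 to 1.92 in SVZ. Cox6a1 differed by -0.93 ± 0.33 (adjusted p = 0.122) and the muscle form Cox6a2 by 0.79 ± 0.24 (adjusted p = 0.0721). Cox6a2 read 3.66, 2.12, 2.61, 2.98 and 2.72 in SVZ, 2.39, 2.43, 2.62, 2.61 and 3.10 in hippocampus and 2.05, 2.28, 1.91, 2.00 and 1.91 in cerebellum. It was the 1 respiratory chain gene higher at an unadjusted p under 0.05 in each comparison with cerebellum, and its hippocampus arrays did not overlap cerebellum (0.60 ± 0.24, adjusted p = 0.181).

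Cox8a differed by -1.60 ± 0.46 in SVZ minus cerebellum (adjusted p = 0.0574) and -0.10 ± 0.46 in hippocampus minus cerebellum. Cox8b, the muscle form, read 1.44, 6.72, 1.24, 2.33 and 5.79 in hippocampus and 0.88 to 1.61 in SVZ. High values on hippocampus arrays 2 and 5 thus made its mean, and its difference of 1.63 ± 0.97 from cerebellum was not called (adjusted p = 0.353 by limma). The choroid plexus marker Kl was highest on the same arrays as Cox8b, at 7.79 and 6.75 on hippocampus arrays 2 and 5 and 6.65 on cerebellum array 5, where Cox8b read 4.09, and its part in Cox8b was not tested. Cox7a2 differed by -1.49 ± 0.58 in SVZ and Cox7a1 by 0.03 ± 0.87, and Cox6b1 by -0.69 ± 0.38 and Cox6b2 by 0.01 ± 0.82. Cox5a differed by -0.95 ± 0.79, a value that rests on SVZ array 1 (2.33, the other SVZ arrays being 5.89 to 7.81) and became -0.01 without it. Ndufa4, named for complex I but known as a subunit of complex IV, differed by -1.39 ± 0.45 in SVZ (adjusted p = 0.0905), and its relative Ndufa4l2 by 0.19 ± 0.20. The 8 restricted isoforms together had medians of 0.02 in SVZ and 0.39 in hippocampus, and all 8 had means below 3, so the floor of the scale limits what these differences can show.

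**Figure D4:**
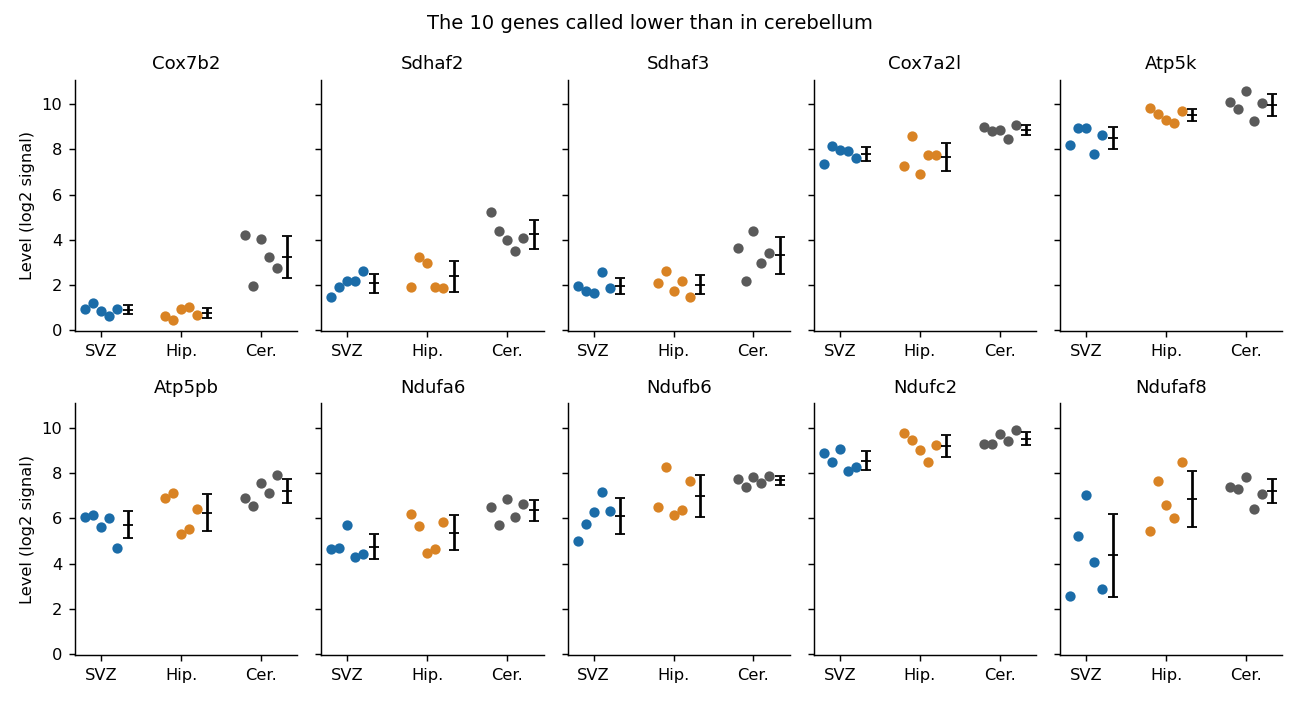
Log2 level (vertical axis, from 0) of the 10 respiratory chain genes called lower than in cerebellum, on each SVZ, hippocampus (Hip.) and cerebellum (Cer.) array. Points are arrays, and bars are the mean and SD of 5 arrays. In Cox7b2 and Sdhaf2 the forebrain arrays lie at or below 3.25 and fully under the cerebellum arrays of the same gene, and in Atp5k the hippocampus arrays at 9.17 to 9.83 lie within the cerebellum range of 9.26 to 10.57 except for the lowest.

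Complex V, the ATP synthase, had 17 genes, all above 3, and all 17 were negative in SVZ minus cerebellum with a median of -0.96. In hippocampus minus cerebellum 16 were negative with a median of -0.49. limma called Atp5k and Atp5pb lower in SVZ and 0 in hippocampus.

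Atp5k, subunit e, which takes part in the pairing of ATP synthases at the cristae, read 8.21, 8.94, 8.94, 7.79 and 8.63 in SVZ, 9.83, 9.55, 9.29, 9.17 and 9.71 in hippocampus and 10.08, 9.79, 10.57, 9.26 and 10.03 in cerebellum. The SVZ arrays were below all other arrays, while hippocampus and cerebellum overlapped. The difference was -1.44 ± 0.27 in SVZ minus cerebellum (2.72-fold, adjusted p = 0.0058 by limma), and it held in all 15 fits without 1 array. In hippocampus minus cerebellum it was -0.44 ± 0.27 (adjusted p = 0.367). In SVZ minus hippocampus it was -1.01 ± 0.27, not called (adjusted p = 0.430). The other 2 probe sets gave -1.07 and -1.07 in SVZ minus cerebellum. With the spike-in level as a covariate the adjusted p was 0.109.

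The promoter of Atp5k (chr5:108434400-108434599, minus strand, GRCm38.p6, RefSeq) is shown because its SVZ difference held without each array and its 200 bases before the start hold the NRF1 letters GCATGCGC on both strands. Capitals mark the overlapping pair, which begin 50 and 48 bases before the start. NRF1 is a transcription factor known for its role at nuclear genes of the respiratory chain.
Atp5k: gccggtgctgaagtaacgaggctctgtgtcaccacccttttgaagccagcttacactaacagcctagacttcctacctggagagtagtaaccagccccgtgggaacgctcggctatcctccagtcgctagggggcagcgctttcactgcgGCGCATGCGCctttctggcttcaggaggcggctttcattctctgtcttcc

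Atp5pb, subunit b of the stalk that holds the catalytic head still, read 6.04, 6.16, 5.63, 6.01 and 4.71 in SVZ, 6.90, 7.14, 5.29, 5.54 and 6.39 in hippocampus and 6.91, 6.53, 7.56, 7.12 and 7.91 in cerebellum. SVZ did not overlap cerebellum, and hippocampus spanned most of both. The difference was -1.50 ± 0.40 in SVZ (adjusted p = 0.0422) and a second probe set gave -2.20 (adjusted p = 0.0318 over all probe sets, by limma). The call was lost in 9 of 15 fits without 1 array (SVZ 1, 3, 4 or 5, hippocampus 5, or cerebellum 1, 3, 4 or 5, up to 0.115), with quantile normalization (0.147) and with the spike-in covariate (0.682).

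Of the catalytic subunits, 0 were called. Atp5a1, the alpha subunit, read 10.50, 10.55, 10.35, 10.61 and 10.23 in SVZ, 9.74, 10.61, 10.14, 10.35 and 10.38 in hippocampus and 10.42, 11.03, 10.67, 11.08 and 11.46 in cerebellum. The lowest cerebellum array fell among the forebrain arrays, and the differences were -0.48 ± 0.21 (adjusted p = 0.195) and -0.69 ± 0.21 (adjusted p = 0.0748 by limma). Atp5b, the beta subunit, differed by -0.84 ± 0.37 and -0.64 ± 0.37. Among the genes of the membrane ring, Atp5g1, Atp5g2 and Atp5g3 encode the same mature subunit c. They differed by -1.04 ± 0.93, -1.66 ± 0.56 and -1.57 ± 0.51 in SVZ minus cerebellum, with adjusted p of 0.540, 0.102 and 0.0942. In hippocampus minus cerebellum Atp5g1 was the 1 complex V gene with a positive difference, 0.92 ± 0.93, with hippocampus arrays from 2.68 to 7.83.

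Between the forebrain regions most respiratory chain genes had a negative difference of SVZ minus hippocampus, but no single gene was called. The median of SVZ minus hippocampus was -0.35 with 73 of 94 genes negative, while all genes had a median of 0.00 and 50.4% were negative. Among genes above 3 the medians were -0.49 for the 76 respiratory chain genes and 0.06 for all genes, and quantile normalization left them at -0.50 and 0. limma called 0 of the 94 genes in either direction, where 0.0055% of all genes were called lower and 0.0165% higher. At an unadjusted p under 0.05, 15 were lower (16%) and 1, Ndufa10, was higher, against 3.49% and 3.53% of all genes. Leaving out hippocampus array 2 took the median of the 94 genes to -0.19, and leaving out hippocampus array 3 took it to -0.53.

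Markers of other cells differed between the same arrays. All 5 choroid plexus markers were negative in SVZ minus hippocampus, with a median of -2.59 and sums that did not overlap, and 11 of 12 microglia markers were positive, with a median of 1.15. None of the 5 choroid plexus or 12 microglia markers was called, and their part in the respiratory chain differences was not tested.

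By complex, the medians of SVZ minus hippocampus were -0.28 for complex I, -0.18 for II, -0.69 for III, -0.41 for IV and -0.65 for V. That of complex II turned to 0.04 without hippocampus array 4. In 3 genes (background 0.44%) every SVZ array lay below every hippocampus array, namely Atp5k, whose values are given with complex V, and the complex I accessory subunits Ndufa5 and Ndufb7. Ndufa5 read 8.82, 9.30, 9.34, 8.99 and 9.61 in SVZ and 10.19, 9.88, 9.84, 10.68 and 9.80 in hippocampus, with cerebellum at 9.45 to 10.36. Its difference was -0.87 ± 0.22 (adjusted p = 0.409 by limma). Ndufb7 read 10.90, 10.84, 9.86, 10.23 and 10.54 in SVZ and 10.94, 11.95, 11.23, 11.12 and 11.75 in hippocampus, a gap of 0.04 between the nearest arrays, and differed by -0.92 ± 0.31 (adjusted p = 0.534). Larger differences with overlapping arrays were those of Ndufaf8 (-2.49 ± 0.77, adjusted p = 0.494), Cox8b (-2.30 ± 0.97) and Atp5g1 (-1.96 ± 0.93). Uqcrq, a small subunit of complex III, differed by -1.57 ± 0.62 (adjusted p = 0.621) and Ndufa10 by 0.68 ± 0.31 (adjusted p = 0.703).

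The series design asked for a change of over 4-fold, with p under 0.01 before adjustment, relative to cerebellum. In SVZ 5 of the 94 genes passed on the lower side, Cox7b2, Sdhaf2, Ndufaf2, Ndufaf8 and Ndufa3, where 2.55% of all genes passed as lower. In hippocampus Cox7b2 alone passed, where 2.45% of all genes did. The SVZ count was 3 without SVZ array 4, cerebellum array 1 or cerebellum array 3. The hippocampus count rose to 4 without hippocampus array 2, 3 without hippocampus array 3 or 5, and 2 without cerebellum array 4.

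The counts of called genes also moved with single arrays. In SVZ minus cerebellum the 10 calls became 3 without cerebellum array 3 or 5, 5 without SVZ array 5 or cerebellum array 1, 6 without SVZ array 1, cerebellum array 2 or cerebellum array 4, and at most 14 in any of the 15 fits. Over all genes the 814 lower calls became 630 without cerebellum array 3 and 504 without cerebellum array 5. In hippocampus minus cerebellum the 4 calls became 9 without hippocampus array 2 and 2 without cerebellum array 5, where the 722 lower calls over all genes became 934 and 456. Across those fits the median of the 94 genes ranged from -0.98 to -0.80 in SVZ minus cerebellum and from -0.68 to -0.30 in hippocampus minus cerebellum.

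Other mitochondrial genes, in 4 lists, were described with the same fit. As background for each list, 4.47% of all genes were called lower in SVZ and 3.97% in hippocampus, and 0.808% higher in hippocampus. Among genes above 3 the lower shares were 9.99% and 9.14%. The median over all genes was 0.07 in both comparisons, and over genes above 3 it was -0.72 in SVZ and -0.70 in hippocampus. Of 31 genes for cytochrome c and for assembly factors outside the prefixes, 4 were called lower in SVZ than in cerebellum and 0 in hippocampus, with medians of -0.50 and -0.29. They were Nubpl, which delivers iron-sulphur clusters to complex I (-2.85 ± 0.50, adjusted p = 0.00374 by limma), Cox19, a copper-linked assembly factor of complex IV (-1.92 ± 0.41, adjusted p = 0.0131), Higd1a (-2.04 ± 0.54, adjusted p = 0.0422) and Tmem126b, an assembly factor of complex I (-1.41 ± 0.36, adjusted p = 0.0329). Nubpl read 0.76, 2.34, 2.24, 2.39 and 1.97 in SVZ and 3.68, 4.37, 5.35, 4.95 and 5.61 in cerebellum, without overlap, and hippocampus lay between at 2.11 to 4.73. The calls of Nubpl and Cox19 held without each array in turn, while Higd1a lost its call in 11 of 15 fits (all but those without SVZ 3 or hippocampus 2, 3 or 5, up to 0.1) and Tmem126b in 8 (SVZ 2, 3 or 4 or any cerebellum array, up to 0.0825).

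Of 21 genes of the citrate cycle and pyruvate dehydrogenase, Pdk1, a kinase that switches pyruvate dehydrogenase off, was called lower in both forebrain regions, by -1.11 ± 0.29 for SVZ (adjusted p = 0.0412) and -1.38 ± 0.29 for hippocampus (adjusted p = 0.0148). The fumarate hydratase Fh1 was called lower in hippocampus (-1.73 ± 0.46, adjusted p = 0.0490 by limma). The medians of that list were -0.65 and -0.47. Without 1 array the SVZ call of Pdk1 was lost in 7 of 15 fits (SVZ 1, 2, 3 or 5, or cerebellum 1, 2 or 4, up to 0.101) and that of Fh1 in 11 (all but SVZ 1, hippocampus 1 or 2 and cerebellum 1, up to 0.119).

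Of 18 genes for mitochondrial biogenesis and upkeep of mitochondrial DNA, with medians of 0.03 and -0.06, Tfam was called lower in both forebrain regions. Tfam, which packages and transcribes mitochondrial DNA, read 1.34, 1.58, 0.97, 1.32 and 1.25 in SVZ, 1.75, 2.05, 1.41, 1.23 and 1.69 in hippocampus and 3.83, 2.36, 2.61, 3.52 and 3.15 in cerebellum. All forebrain arrays were below all cerebellum arrays, at levels near the floor. The differences were -1.80 ± 0.26 (adjusted p = 0.000981) and -1.47 ± 0.26 (adjusted p = 0.00424 by limma), and both held without each array in turn. Ppargc1a, a coactivator of mitochondrial biogenesis, was called higher in hippocampus than in cerebellum (1.30 ± 0.32, adjusted p = 0.0343). It read 5.98, 4.56, 6.44, 6.35 and 6.29 in hippocampus and 5.02, 4.52, 3.99, 4.70 and 4.90 in cerebellum, with hippocampus array 2 inside the cerebellum range. Its call was lost in 8 of 15 fits (hippocampus 1, 3, 4 or 5, or cerebellum 2, 3, 4 or 5, up to 0.0848). The mean of its probe sets gave 0.51 and was not called (adjusted p = 0.450 by limma). The call was also lost with the replicate block (0.0598), with only the 2 groups compared (0.0712) and with a trended and robust spread (0.103).

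Of 14 carriers, pores and uncoupling proteins, with medians of -0.28 and -0.37, the carrier Slc25a14 (-2.02 ± 0.40, adjusted p = 0.00839) and the outer membrane channels Vdac1 (-0.98 ± 0.21, adjusted p = 0.0139) and Vdac3 (-1.49 ± 0.36, adjusted p = 0.0251) were called lower in SVZ. Vdac1 was also called lower in hippocampus (-0.79 ± 0.21, adjusted p = 0.0450 by limma). Vdac1 read 10.65 to 11.35 in SVZ, 11 to 11.63 in hippocampus and 11.48 to 12.31 in cerebellum. The SVZ calls of Slc25a14 and Vdac1 held without each array, while Vdac3 lost its call in 6 of 15 fits (SVZ 1, 3 or 5, or cerebellum 3, 4 or 5, up to 0.0674) and Vdac1 its hippocampus call in 9 (SVZ 3, hippocampus 1, 3, 4 or 5, or cerebellum 1, 2, 4 or 5, up to 0.118). With the mean of its probe sets Vdac1 lost both calls (adjusted p of 0.0792 in SVZ and 0.173 in hippocampus by limma). Fitted among genes above 3 alone it lost them too, at 0.0629 and 0.132. Of the 4 lists, 0 genes were called in SVZ minus hippocampus. With the spike-in covariate none of the calls in these 4 lists held (adjusted p of 0.0559 to 0.638), and quantile normalization ended those of Cox19, Higd1a, Tmem126b, Pdk1, Fh1 and Vdac3.

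The 1 mitochondrially encoded subunit measured was ND5 of complex I. It read 10.73, 10.73, 10.64, 10.45 and 10.27 in SVZ, 10.92, 11.49, 10.28, 10.27 and 10.74 in hippocampus and 11.14, 10.40, 10.84, 11.07 and 10.69 in cerebellum. The 3 groups overlapped throughout. Its differences were -0.26 ± 0.23 in SVZ minus cerebellum (adjusted p = 0.525 by limma), -0.09 ± 0.23 in hippocampus minus cerebellum (adjusted p = 0.841) and -0.18 ± 0.23 in SVZ minus hippocampus (adjusted p = 0.873).

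Promoters of 78 of the 94 genes were found in the RefSeq table (GRCm38.p6), each as one window around the annotated start, and 3 short motifs were searched on both strands. The NRF1 letters GCATGCGC were in 11 of them (14.1%) and in 3.05% of the windows of all 27025 genes. The ETS letters CCGGAAG were in 22 (28.2%, against 9.93%) and the YY1 letters AAGATGGCG in 7 (8.97%, against 1.64%). At least 1 of the 3 was in 33 (42.3%, against 13.6%). A match in NRF1 can overlap its own reverse complement and was counted once per window. Of the 10 genes called lower in SVZ, the NRF1 letters were in Atp5k and Ndufa6, the ETS letters in Atp5k, Ndufaf8, Ndufb6, Sdhaf2 and Sdhaf3, and the YY1 letters in Ndufaf8, with the ETS match of Atp5k outside the bases shown. These matches describe the windows and do not mark bound sites.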

How the data were processed

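RNA of sorted cells from 15 pools was hybridised to Affymetrix mouse expression arrays, 5 per region. Per the submitters' processing notes the authors processed the arrays with RMA, which corrects background and summarises probes and usually includes quantile normalization. The deposited values were read as log2 signal, since they carry no stated base. No later scaling step is named, and the columns do not share one distribution. Precision rests on 5 arrays a region.

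Of 45101 probe sets, 34958 had 1 gene symbol, 932 had several and 9211 were not listed. Symbols of 34754 were updated through Entrez identifiers and 204 were kept as listed. The 64 control probe sets were left out. The probe set with the highest mean stood for its gene, which gave 18194 genes. limma (version 3.58.1, R 4.3.3) was fitted to all 15 arrays with 1 mean per region and no block, and Benjamini-Hochberg adjustment covered all genes, with calls at an adjusted p under 0.05. The procedure was tested on simulated data in which each gene had 1 spread for all regions. That test does not cover the smaller spread between cerebellum arrays seen here. Arrays that share a replicate number had correlations of deviations between -0.1206 and 0.1377. Arrays with unlike numbers were not correlated as a reference, so whether the numbers pair the samples was not settled.

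The genes and lists were chosen with earlier results of these data known. Named were genes called in any comparison or past the thresholds of the series design, the largest differences of each complex (first among genes with non-overlapping arrays), 10 core subunits, isoform sets and, in the other lists, called genes. Alternatives were other scalings, weights, filters, probe set means, thresholds, a spike-in covariate, a replicate block and leaving out arrays. Marker lists of astrocytes, neurons, cerebellar neurons, microglia, oligodendrocytes and their precursors, endothelial, ependymal and choroid plexus cells were summed as linear signal. Promoters came from RefSeq.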

Additional observations from a re-analysis of the deposited data

Results flagged for a closer look

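In groups of 5 arrays, the highest or lowest value was set against its nearest neighbour with Dixon's criterion, over 159 groups that covered 47 of the genes and the array medians. Of these, 7 groups (4.4%) held an array far from the others, and chance alone flags about 1 in 20 groups. The median of the complex III genes was 6.57 on SVZ array 4, where the next highest SVZ array had 5.34. Ndufa6, which was called lower in SVZ, read 5.71 on SVZ array 3 and at most 4.68 on the other SVZ arrays. Sdhaf1, the assembly factor for the iron-sulphur centres of complex II, read 5.37 on hippocampus array 4 and at most 1.97 on the others. Sdhb read 3.09 on hippocampus array 3 and at least 6.06 on the others. Uqcrc1 read 1.91 on hippocampus array 5 and at least 4.33 on the others. The restricted isoforms Cox8b and Cox4i2 each had a single high array, at 4.09 on cerebellum array 5 for Cox8b (next 1.44) and 1.92 on SVZ array 2 for Cox4i2 (next 1.26).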

How the results depend on the processing

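The median difference of the 94 genes kept its sign in all 28 alternatives of each comparison. It moved by less than the pooled SD of array medians (SDs of 0.34 in SVZ, 0.63 in hippocampus and 0.23 in cerebellum). That yardstick is wide beside medians of -0.50 in hippocampus minus cerebellum and -0.35 in SVZ minus hippocampus, so it passes sizeable moves. The former became -0.12 with quantile normalization and -0.19 with the spike-in covariate. Counts of called genes moved as well. For genes lower in SVZ than in cerebellum, 10 in the report, the count was 19 with median centring, 3 with quantile normalization, 20 with only the 2 groups compared, 19 with 1 weight per region, 18 with 1 weight per array, 6 with a trended and robust spread, 2 with the spike-in covariate, 3 without cerebellum arrays 4 and 5, 6 over structural subunits, 24 at an adjusted p under 0.1, and 3 to 14 without single arrays. Lower calls over all genes, 814 in the report, moved too, to 1040 with median centring, 396 with quantile normalization, 1044 with only the 2 groups, 1078 with region weights, 1152 with array weights, 669 with the trended and robust spread, 144 with the spike-in covariate and 297 without cerebellum arrays 4 and 5. For hippocampus, 4 in the report, it was 7 with median centring, 1 with quantile normalization, 2 with the mean of probe sets, 7 with 1 weight per region, 2 with the spike-in covariate, 2 without cerebellum arrays 4 and 5, 1 over structural subunits, 9 at an adjusted p under 0.1, and 2 to 9 without single arrays. Over all genes the 722 lower calls there became 952 with median centring, 337 with quantile normalization, 951 with the mean of probe sets, 889 with region weights, 178 with the spike-in covariate and 297 without cerebellum arrays 4 and 5. For genes higher in SVZ, 0 in the report, it was 1 with region weights, 1 at an adjusted p under 0.1, and 0 to 1 without single arrays. At the thresholds of the series design, the 5 genes in SVZ became 2 with quantile normalization, 2 with the mean of probe sets, 3 among genes above 3, 2 with the spike-in covariate, 3 without cerebellum arrays 4 and 5, 2 over structural subunits, and 3 to 7 without single arrays. The 1 gene in hippocampus became 0 among genes above 3, 2 with the spike-in covariate, 3 without SVZ array 1 and hippocampus array 3, 2 without cerebellum arrays 4 and 5, and 1 to 4 without single arrays. The cause of these changes was not tested. With the replicate number as a block, 8 genes were called lower in SVZ and 3 in hippocampus, and 0 in SVZ minus hippocampus. Of the 15 correlations between arrays that share a number, 4 were above 0.1. That does not settle whether the numbers pair the arrays. For the named differences, 174 in number and mostly not called in the report, alternatives left the result the same 4317 times. That count includes uncalled differences that stayed uncalled and moved by less than the SD between replicates. A call was lost 245 times and gained 70 times, and an uncalled value moved further 21 times. Among the calls in SVZ, that of Sdhaf3 held in 8 of 26 alternatives and that of Cox7b2 in 26 of 26. Signal near the floor limits the 18 genes with means at or below 3, among them Cox7b2, Sdhaf2 and Sdhaf3.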

Other observations

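The 53 respiratory chain genes with several probe sets had 91 further ones, which the comparisons did not use. In SVZ minus cerebellum 64 of the 91 had the sign of the probe set used, and among the 57 with a mean above 3 it was 56. In hippocampus minus cerebellum the counts were 67 of 91 and 53 of 57. limma with adjustment over all probe sets called 8 of them lower in SVZ and 1 in hippocampus, and 0 higher in either. Probe sets of one gene share the same RNA and are not replicates.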
